A study of Mus musculus with 6 samples.

Results

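The 9 genes listed as markers of striatal medium spiny neurons, namely Drd1, Drd2, Adora2a, Penk, Tac1, Pdyn, Ppp1r1b, Rgs9 and Pde10a, were followed across 6 brain expression arrays. Their probe sets, each a group of short probes for 1 transcript, were taken as all those whose only annotated gene symbol was one of the 9 names. This gave 16 probe sets for 8 genes, out of 34945 single-symbol probe sets on the array. Adora2a, an adenosine receptor gene, had no probe set under this rule and was not analysed here. Of the 16 probe sets, 13 had a mean signal over the 6 arrays above the median of all probe sets (26.7) and entered the test, with at least 1 for each of the 8 genes. The other 3, of Tac1 and Rgs9, were too dim and are given as values.

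The arrays came from mouse brain at 1 month of age, 3 from mice without Dap12, labelled Dap12-ko and named 67, 68 and Ko1, and 3 from mice that keep 1 working copy, labelled Dap12-het and named 75, 76 and 81. Dap12 is the signalling adaptor of microglial receptors and is encoded by Tyrobp. The design text gives the dissected tissue as midbrain with diencephalon and basal ganglia. The labels give no strain, sex or litter, and no wild-type array was compared. The labels do not say that the arrays come from separate animals, so the spread behind each p-value is that between these samples and may be technical. Every array had a mean of 100 after trimming 2% of probe sets at each end, but median signals were 24.7 to 40.4 on the knockout arrays and 20.3 to 22.0 on the heterozygous arrays. Tyrobp, the deleted gene, read 2.28 to 23.7 on knockout and 68.2 to 77.6 on heterozygous arrays (log2 change -1.68 ± 0.34, limma adjusted p = 0.0461), in the direction of the labels. Its knockout mean of 12.9 lay below the level of 26.7 needed for the test, which it met through its heterozygous mean of 72.2. Entry into the test thus depended on its high heterozygous values. Without a filter on level its adjusted p was 0.0952 (limma). Signals below are listed for arrays 67, 68 and Ko1 of the knockout and then for 75, 76 and 81 of the heterozygotes.

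Medium spiny neurons are the GABA-releasing projection cells that make up most of the striatum, the input nucleus of the basal ganglia. They fall into a direct pathway class, which carries the D1 dopamine receptor together with substance P and dynorphin, and an indirect pathway class, which carries the D2 dopamine receptor, an adenosine receptor and enkephalin. Dopamine raises cyclic AMP in the first class through D1 and lowers it in the second through D2, and a shared set of proteins, including DARPP-32, RGS9 and PDE10A, relays or ends that signal. The peptide genes are also active outside the striatum, for example in the hypothalamus, whereas Drd1, Ppp1r1b, Rgs9 and Pde10a are concentrated there within the brain tissue named here.

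As a description, the RefSeq promoter windows of the listed genes were searched for short motifs. A link between motifs and the levels on the arrays was not tested. Windows of 300 bases, 250 before and 50 after a transcription start, were listed for 6 of the 9 genes. The letters searched, on either strand and allowing overlaps, were TGACG, the half-site bound by CREB, the cyclic AMP response factor; GGGCGG, the GC box bound by Sp1; and TATAAA, the TATA box. The 3 windows shown stand for the receptor that defines each class and for a direct pathway peptide, are given 5′ to 3′ on the strand of the gene in GRCm38.p6, and carry the matches in capitals.

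Drd1, minus strand, chr13:54055609-54055908: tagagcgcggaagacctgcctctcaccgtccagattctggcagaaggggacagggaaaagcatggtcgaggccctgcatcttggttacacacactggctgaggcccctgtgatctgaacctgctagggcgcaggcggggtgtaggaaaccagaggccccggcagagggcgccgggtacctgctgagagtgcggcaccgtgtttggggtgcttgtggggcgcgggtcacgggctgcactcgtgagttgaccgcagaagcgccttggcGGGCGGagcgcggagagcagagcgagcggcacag
Drd2, plus strand, chr9:49340153-49340452: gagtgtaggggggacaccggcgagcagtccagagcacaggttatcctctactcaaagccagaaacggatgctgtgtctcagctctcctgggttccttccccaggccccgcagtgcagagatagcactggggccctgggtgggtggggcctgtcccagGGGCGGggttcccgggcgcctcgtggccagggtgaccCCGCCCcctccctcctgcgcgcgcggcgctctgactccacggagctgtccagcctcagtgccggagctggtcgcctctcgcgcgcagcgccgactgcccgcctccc
Tac1, plus strand, chr6:7554811-7555110: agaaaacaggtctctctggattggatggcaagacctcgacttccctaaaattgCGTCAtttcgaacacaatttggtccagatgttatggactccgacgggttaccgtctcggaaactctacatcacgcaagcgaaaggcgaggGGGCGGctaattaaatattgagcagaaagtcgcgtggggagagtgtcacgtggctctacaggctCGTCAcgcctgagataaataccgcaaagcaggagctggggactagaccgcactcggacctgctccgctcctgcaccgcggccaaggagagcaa

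The Tac1 window held TGACG at -197 and at -43 from the start, in both cases on the opposite strand, and a GC box at -107. Drd2 held GC boxes at -93 and -56 and Drd1 held 1 at 17. None of these 3 windows held TATAAA. Over all 32851 windows of this length, 20.8% held TGACG, 35.7% GGGCGG and 13.6% TATAAA, and no motif was shared by all members: Pdyn held none of the 3 in its windows. A match describes letters and not a bound site.

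The dopamine receptors were high on 1 array of each group. On its brightest probe set, Drd1, the D1 receptor, had signals of 50.7, 53.4 and 805 in the knockout and of 113, 104 and 656 in the heterozygotes. Knockout Ko1 and heterozygous 81 thus stood far above the other arrays of their groups, and the groups overlapped. The second Drd1 probe set followed, with 1.06, 20.2 and 424 on the knockout and 73.5, 39.6 and 527 on the heterozygous arrays. Drd2, the D2 receptor, had signals of 101, 121 and 172 in the knockout and of 102, 75.8 and 299 in the heterozygotes. It had the same 2 arrays on top but a smaller rise on Ko1, which lay 0.58 above the mean of the other 2 knockout arrays on the log2(signal + 16) scale, against 3.59 for Drd1.

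Among the peptide precursors, Penk and Tac1 had the widest ranges over knockout arrays when the brightest probe set of each of the 8 genes is compared. Penk, the precursor of enkephalin, was at 111, 216 and 2404 in the knockout and at 873, 531 and 2309 in the heterozygotes. Its Ko1 value was 21.6 times that of knockout 67, while the highest heterozygous value was 4.35 times the lowest. Tac1, the precursor of substance P, read 105, 464 and 2067 in the knockout order and 667, 584 and 1274 in the heterozygous order. Pdyn, the precursor of dynorphin, was dim on most arrays, at 8.54, 13.0 and 107 on the knockout and 31.9, 31.8 and 83.8 on the heterozygous arrays. For all 3 peptides knockout 67 was the lowest array of the 6, knockout 68 the next lowest, and Ko1 the highest, with heterozygous 81 the highest of its own group. The second Tac1 probe set, which was not tested, stayed between 0.768 and 24.6, with all 3 knockout arrays above the heterozygous ones and heterozygous 81 lowest.

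Genes of the intracellular relay followed the same arrays. Ppp1r1b, which encodes DARPP-32, an inhibitor of protein phosphatase 1 that protein kinase A switches on, was at 76.2, 126 and 884 in the knockout and at 247, 97.2 and 909 in the heterozygotes. Rgs9, a regulator that shortens G protein signals, read 105, 67.4 and 402 against 95.2, 89.0 and 452. Here the 4 lower arrays of both groups lay close together, between 67.4 and 105. Pde10a, the phosphodiesterase that breaks down cyclic AMP and cyclic GMP in these cells, was at 118, 178 and 1066 against 217, 330 and 1052 on its brightest probe set. Its next 2 probe sets by level behaved alike, with Ko1 at 637 and 404 and heterozygous 81 at 338 and 186, above the other arrays of their groups. Probe set 1419390_at also had those arrays on top, at 50.5, 47.1 and 144 against 9.14, 1.35 and 25.1, but its knockout values all lay above the heterozygous ones. Probe set 1432490_a_at differed, with 184 on heterozygous 81 but 21.1 on Ko1 and 46.5 on knockout 67. The 2 dim Rgs9 probe sets stayed at or below 33.2.

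**Figure D1:**
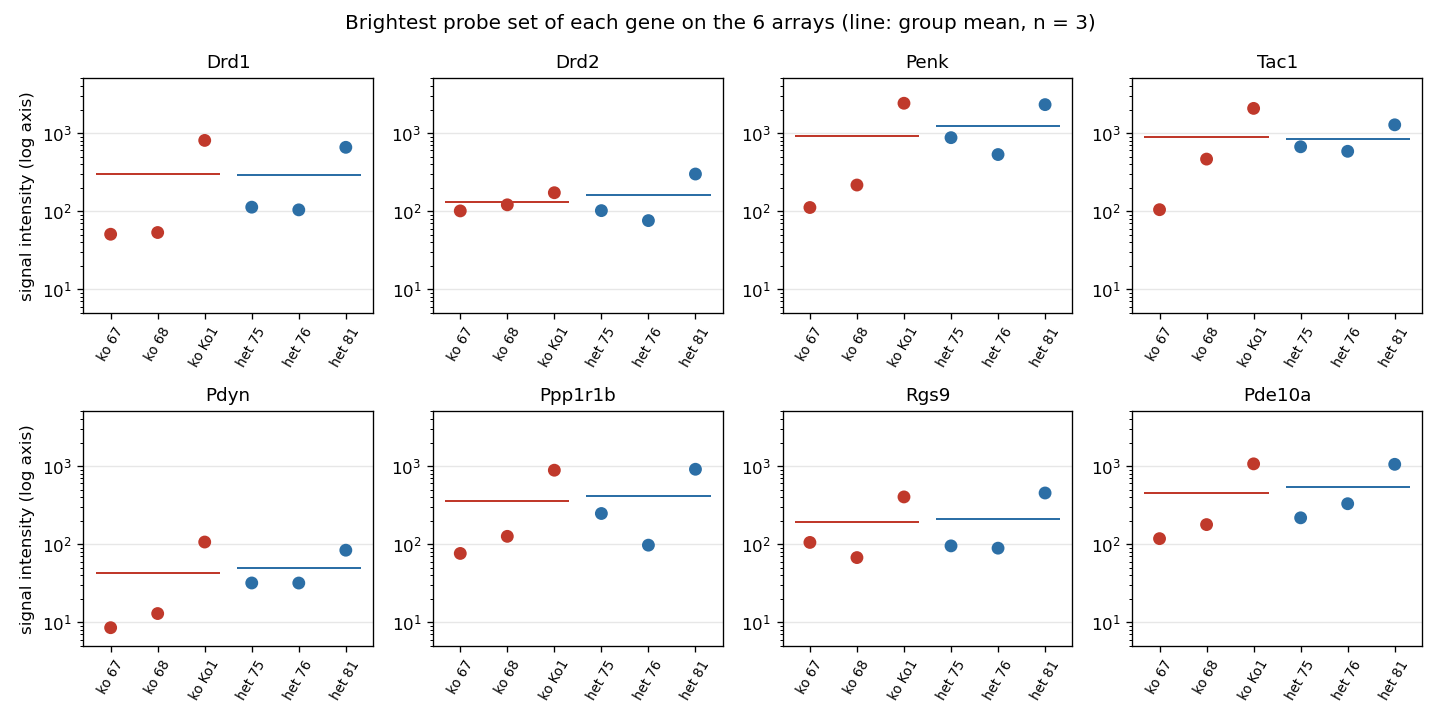
Signal intensity (log axis) of the brightest probe set of each of the 8 genes on the 3 knockout (ko, red) and 3 heterozygous (het, blue) arrays; a point is 1 array and a line the group mean. In each panel Ko1 is the highest knockout array and 81 the highest heterozygous array, as for Drd1 at 805 and 656.

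Comparing genotypes asked whether loss of Dap12 changed these transcripts. None of the 13 tested probe sets passed the test (limma on log2(signal + 16), Benjamini-Hochberg adjusted p under 0.05), with 0 higher and 0 lower on the knockout arrays, where 2.07% of all 22518 probe sets passed. At an unadjusted p under 0.05 there was 1 of 13, the dim Pde10a probe set 1419390_at, beside 21.2% of all probe sets. Its heterozygous mean of 11.9 lay below the level filter of 26.7, which it passed through its knockout mean of 80.6. Its entry into the test thus depended on its high knockout values. Without a filter on level its adjusted p was 0.143 (limma). Mean signals were 303 ± 434 (SD, n = 3) in the knockout and 291 ± 317 in the heterozygotes for Drd1, 131 ± 36.9 and 159 ± 122 for Drd2, and 911 ± 1294 and 1237 ± 944 for Penk. The SD was as large as the mean, or larger, for Drd1 and for knockout Penk. Adjusted p ran from 0.475 for Penk to 0.954 for Drd2 over the brightest probe sets. Penk had the largest of these changes, at -1.33 ± 0.99 (SE) on the log2 scale, with a 95% interval from -3.57 to 0.92. Drd1 changed by -0.48 ± 1.00 (interval -2.75 to 1.79), Tac1 by -0.71 ± 0.85 (-2.65 to 1.23) and Ppp1r1b by -0.41 ± 0.92 (-2.51 to 1.69). The narrowest interval was that of Drd2, from -1.04 to 0.92. Since these intervals hold sizeable changes of either sign, the arrays do not show that the levels were alike.

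On the log2(signal + 16) scale the brightest probe sets of all 8 genes had changes below 0, although the mean signal was higher in the knockout for Drd1 (303 against 291) and Tac1 (878 against 842). These log2 changes had a median of -0.47 against -0.09 for all 11446 genes tested. That median rested on single arrays: it was 0.09 without knockout 67, 0.21 without heterozygous 81, -1.43 without Ko1 and 1.27 with Ko1 as the only knockout array, assumed in that fit to vary like the others. Of the 13 tested probe sets, 12 had groups that overlapped and 1 did not, the Pde10a probe set 1419390_at, which was higher on every knockout array (1.74 ± 0.46, adjusted p = 0.0868; exact permutation p = 0.1, the smallest that 3 arrays against 3 allow). As said above, this probe set entered the test only through its knockout values. Over all tested probe sets 27.7% had groups that did not overlap. For the brightest probe sets the exact permutation p lay between 0.5 and 0.9.

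**Figure D2:**
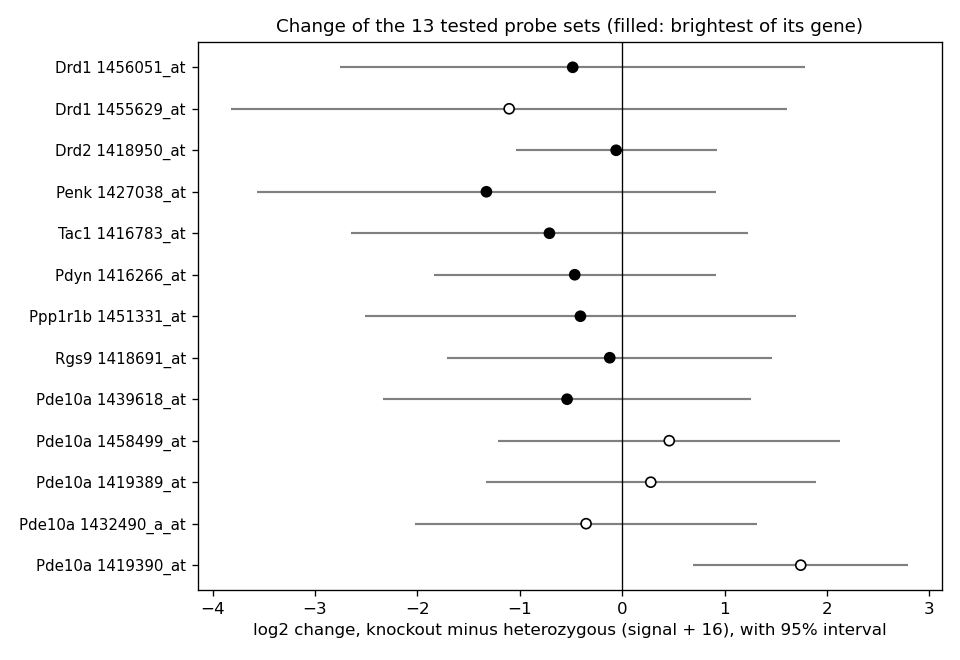
Log2 change (knockout minus heterozygous) of the 13 tested probe sets with its 95% interval from the limma fit; filled points are the brightest probe set of a gene. All intervals but that of Pde10a 1419390_at, from 0.69 to 2.79, include 0.

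Counts of calls changed with the arrays in the fit. Without Ko1, Penk (-2.60, adjusted p = 0.0120) and Tac1 (-1.75, adjusted p = 0.0478) passed as lower on knockout arrays, in a fit where 23.8% of all probe sets passed. Without Ko1 and heterozygous 81 together, a fit chosen after seeing the data, Penk (-2.02, adjusted p = 0.00654) and Drd1 (-0.87, adjusted p = 0.0328) passed as lower and Pde10a 1419390_at as higher (1.63, adjusted p = 0.0327), beside 20.4% of all. With array weights Pde10a 1419390_at passed (1.58, adjusted p = 0.0141), beside 22.1% of all. In each of these fits that probe set met the level filter through its knockout arrays alone.

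The spread within groups was wide for these genes. Over the 3 heterozygous arrays the SD of log2(signal + 16) had a median of 1.10 for the 8 genes, against 0.17 for all genes tested, and over the 3 knockout arrays 1.68 against 0.34. A range of at least 1 on this scale, a doubling of signal + 16, was found among heterozygous arrays for 8 of the 8 genes and for 3.79% of all genes, from 1.06 for Pdyn to 3.03 for Ppp1r1b. Among knockout arrays it was found for 7 of 8, against 25.1% of all, with Penk widest at 4.25 and Drd2 narrowest at 0.69. Without heterozygous 81 the median SD of the heterozygous arrays was 0.19 (0.11 over all genes), and without Ko1 that of the knockout arrays was 0.38 (0.20 over all genes). Most of the spread thus came with 1 array in each group.

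**Figure D3:**
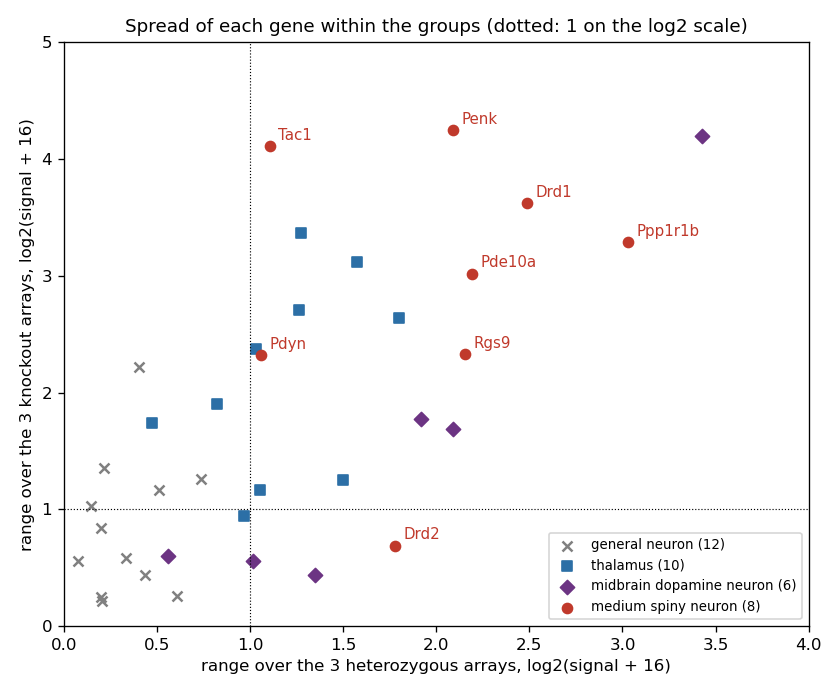
Range of log2(signal + 16) over the 3 heterozygous arrays (x axis) and over the 3 knockout arrays (y axis), 1 point a gene, for the medium spiny neuron genes and 3 other lists. Of the 8 medium spiny neuron genes, 7 lie beyond 1 on both axes and Drd2 on the x axis alone, while no general neuronal gene lies beyond 1 on the x axis.

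The same 2 arrays were highest for each of the 8 genes. Heterozygous 81 was the highest heterozygous array and Ko1 the highest knockout array on the brightest probe set of all 8 genes, against 16.3% of all genes tested. This held in all 8 under quantile normalization, with arrays centred on their medians, with a floor of 1 and with 64 added. The share over all genes was 16.8% under quantile normalization, 23.3% with centring and 16.3% with a floor of 1 or 64 added. Over all 16 probe sets, dim ones included, heterozygous 81 was highest in its group for 14 and Ko1 for 13. Relative to the mean of the other 2 arrays of its group, heterozygous 81 was higher by 1.01 (Tac1) to 2.44 (Drd1) on the log2 scale and Ko1 by 0.58 (Drd2) to 3.81 (Penk). Drd2 and Rgs9 deviated more on heterozygous 81 than on Ko1, and the other 6 genes more on Ko1. In bulk tissue, fewer cells of a type and less RNA per cell cannot be told apart.

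Other genes of these neurons were mostly high on the same arrays. Of 16 further signalling genes, 13 were tested, 0 rose and 0 fell in the knockout (limma, adjusted p), and 12 had Ko1 and heterozygous 81 on top of their groups. Among them Arpp21, a cyclic AMP regulated phosphoprotein, read 178, 177 and 3470 in the knockout and 603, 320 and 1671 in the heterozygotes. Gng7, a G protein gamma subunit of the D1 receptor pathway, read 182, 126 and 1047 against 195, 125 and 768. The smallest p-values in that list were those of Ptpn5, the striatal-enriched tyrosine phosphatase, at -0.85 ± 0.38 (adjusted p = 0.241), and Rasd2 at -0.78 ± 0.56 (adjusted p = 0.462). Of 13 receptors and channels 9 were tested, again with 0 higher and 0 lower, and 8 had those 2 arrays on top, including Gpr6, an orphan receptor of indirect pathway cells, at 2.74, 37.2 and 319 against 72.3, 56.8 and 347. Gabrd was the exception (0.44 ± 0.37, adjusted p = 0.525), and Kcnip2 changed by -0.73 ± 0.62 (adjusted p = 0.532). Of 12 transcription factors 11 were tested with 0 higher and 0 lower, and 8 had those arrays on top. Dlx6 (0.80 ± 0.31, adjusted p = 0.191) and Isl1, a factor of direct pathway cells (-0.59 ± 0.40, adjusted p = 0.438), had the smallest p, and Ebf1 was instead lowest on Ko1 (18.7). The choice of Arpp21, Gng7, Gpr6 and Ebf1 was made with their values known.

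Thalamic and midbrain dopamine neuron genes ran the other way. Ko1 and heterozygous 81 were both the lowest of their groups for 9 of 10 thalamic genes tested and 6 of 6 dopamine neuron genes, where 17.8% of all genes had this order. With arrays centred on their medians the counts were 9 of 10 and 3 of 6, beside 8.79% of all genes. Slc6a3, the dopamine transporter, was at 395, 205 and 6.45 in the knockout and at 295, 252 and 12.9 in the heterozygotes. Th, the enzyme that makes the dopamine precursor, was at 226, 176 and 59.0 against 290, 228 and 55.7. Lef1, a transcription factor of thalamic neurons, read 184, 162 and 6.96 against 81.8, 131 and 33.4. These 3 genes, too, were chosen with their values known. As a median over each list, log2 levels relative to the mean over the 6 arrays were 1.64 on Ko1 and 1.51 on heterozygous 81 for the 8 striatal genes, -1.37 and -0.59 for the thalamic genes, and -0.90 and -0.997 for the dopamine neuron genes. The 12 general neuronal genes were at -0.30 and -0.15, and all genes tested at -0.01 and 0.04.

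**Figure D4:**
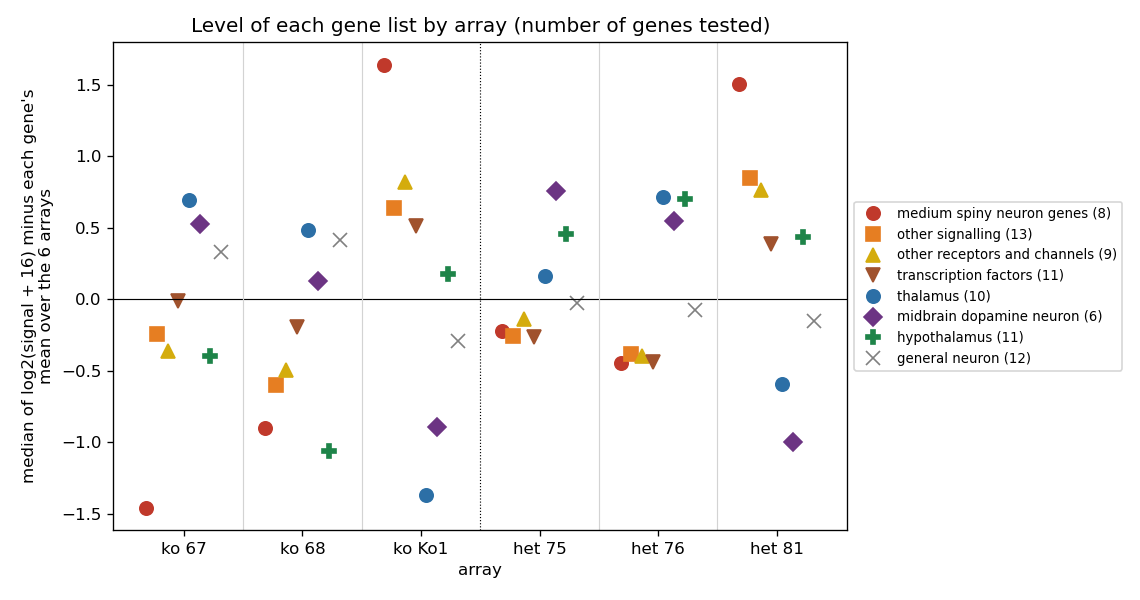
Median over each gene list of log2(signal + 16) minus the mean of the gene over the 6 arrays, by array, with the number of genes tested in brackets. The medium spiny neuron genes are highest on Ko1 (1.64) and heterozygous 81 (1.51), the arrays on which thalamic and midbrain dopamine neuron genes are lowest.

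The 3 GABA neuron genes tested also had these arrays on top of their groups, but with smaller differences. Their median level was 0.17 on Ko1, 0.30 on heterozygous 75 and 0.49 on heterozygous 81. None had a range of at least 1 in either group. Among general neuronal, myelin and astrocyte genes the 2 arrays were both lowest for some genes and both highest for none. Cortical and hippocampal genes and choroid plexus genes showed the reverse, the latter through 1 gene alone, and the remaining lists held both orders. Ko1 and heterozygous 81 were both highest for 3 of 3 GABA neuron genes, 3 of 8 striatal interneuron genes, 3 of 8 cortical and hippocampal genes, 2 of 11 hypothalamic genes, 2 of 9 microglial genes, 1 of 6 choroid plexus genes and none of 12 general neuronal, 9 myelin or 7 astrocyte genes. Over all genes tested the share was 16.3%, near those of the hypothalamic (18.2%), microglial (22.2%) and choroid plexus (16.7%) genes. The 2 arrays were both lowest for 8 general neuronal, 5 myelin, 4 astrocyte, 3 interneuron, 2 microglial and 1 hypothalamic gene, and for none of the GABA neuron, cortical and hippocampal or choroid plexus genes. Over all genes tested that share was 17.8%. With arrays centred on their medians both were lowest for 5 general neuronal, 5 myelin and 2 astrocyte genes, beside 8.79% of all genes. Both were then highest for 2 general neuronal, 1 myelin and 0 astrocyte genes, beside 23.3% of all genes. Of the cortical and hippocampal genes, 5 had both highest and 1 had both lowest in that scaling. Ttr, the transthyretin gene of the choroid plexus, also chosen with its values known, read 16069, 17643 and 402 in the knockout and 622, 1539 and 3532 in the heterozygotes, an order unlike that of the striatal genes. The part of these other regions in the striatal values was not tested. By genotype, Dlk1 (-1.12 ± 0.18, adjusted p = 0.0283) and Baiap3 (-1.68 ± 0.31, adjusted p = 0.0388) of the hypothalamic list fell, Mbp (1.85 ± 0.35, adjusted p = 0.0388) and Mal (0.73 ± 0.15, adjusted p = 0.0457) of the myelin list rose, and no gene of the other lists passed (limma, Benjamini-Hochberg). These 4 calls, and that of Tyrobp, were lost without knockout 67, knockout 68 or any 1 heterozygous array, and under quantile normalization, where adjusted p was 0.0563 for Baiap3, 0.0521 for Dlk1, 0.207 for Mal, 0.682 for Mbp (change 0.15) and 0.0504 for Tyrobp. Median changes were -0.98 for the hypothalamic, 0.54 for the myelin, 0.94 for the choroid plexus, 0.38 for the microglial, -0.31 for the thalamic and -0.14 for the dopamine neuron genes. They were -0.34 for interneuron, -0.35 for GABA neuron, 0.10 for cortical and hippocampal, 0.16 for general neuronal and -0.11 for astrocyte genes, and 0.07, -0.21 and 0.19 for the further signalling genes, receptors and transcription factors above. When 1 array was left out, the hypothalamic, myelin, choroid plexus, microglial, interneuron, GABA neuron and general neuronal medians kept their signs. The other list medians did not: the thalamic one was 0.37 and the dopamine neuron one 0.35 without Ko1. With Ko1 as the only knockout array the myelin median was -0.016. With arrays centred on their medians every change moved by -0.40, and the microglial (-0.018), general neuronal (-0.24), cortical and hippocampal (-0.30), signalling (-0.33) and transcription factor (-0.22) medians lay below 0.

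The genes of smallest p in those lists that did not pass had the following limma changes. Neuronal markers Snap25 (0.88 ± 0.18, adjusted p = 0.0511) and Rbfox3 (0.93 ± 0.21, adjusted p = 0.0576) had higher means on knockout arrays, and the dopamine neuron factor Nr4a2 (-1.12 ± 0.25, adjusted p = 0.0566) a lower one. Ddc was at -0.44 ± 0.34 (adjusted p = 0.494). Microglial C1qa was at 0.91 ± 0.22 (adjusted p = 0.0740) and P2ry12 at 0.89 ± 0.28 (adjusted p = 0.131). Thalamic Rgs16 was at -1.05 ± 0.33 (adjusted p = 0.127), Calb2, listed for thalamus and interneurons, at -0.90 ± 0.39 (adjusted p = 0.226) and the interneuron factor Lhx8 at -1.54 ± 0.69 (adjusted p = 0.241). The GABA transporter gene Slc32a1 was at -0.67 ± 0.24 (adjusted p = 0.162) and Gad2, which makes GABA, at -0.35 ± 0.27 (adjusted p = 0.481). Cortical Neurod6 was at 1.43 ± 0.53 (adjusted p = 0.172) and Nrgn at -0.83 ± 0.49 (adjusted p = 0.364). Astrocyte Aldoc was at 0.44 ± 0.13 (adjusted p = 0.116) and Gfap at -1.25 ± 0.52 (adjusted p = 0.215), and choroid plexus Kl at 0.98 ± 0.34 (adjusted p = 0.152) and Folr1 at 0.92 ± 0.35 (adjusted p = 0.180). The heterozygous means of Kl and Folr1, 16.2 and 16.3, lay below the level filter of 26.7. They passed it through knockout means of 50.3 and 48.2. Kcnj13 of the same list, with a heterozygous mean of 18.0 and a knockout mean of 53.8, passed it in the same way. The choroid plexus median above includes Kl, Folr1 and Kcnj13.

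The genes most like the striatal profile were found over all 11446 genes by the root mean square difference, over the 6 arrays, between a gene's centred log2 values and the mean of the 8 genes. The 6 nearest outside the 8 were Meis2 (0.22), Tmem158 (0.23), Filip1 (0.25), Neto1 (0.28), Ngef (0.30) and Ankrd63 (0.33). Meis2, a homeobox factor that also stands in the list of striatal transcription factors, read 164, 181 and 873 in the knockout and 284, 213 and 789 in the heterozygotes. Tmem158 read 172, 260 and 1589 against 538, 420 and 1053. That both are high on Ko1 and heterozygous 81 follows from how they were chosen. Among the 8 genes themselves the difference ran from 0.25 for Pde10a to 0.73 for Drd2, and 298 other genes lay closer to the profile than Drd2. Each of the 8 is part of the mean it is compared with, which lowers its own difference.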

How the data were processed

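Biotin-labelled total RNA was measured on 6 one-colour Affymetrix arrays. The deposited values are linear signal intensities from GCOS per the submitters' processing notes; no source used here gives its version or summary algorithm. The deposited scaling (trimmed mean 100 on each array, from the values) was kept. Probe sets were named from the platform annotation: 34945 had 1 symbol, 932 several and 9160 none. From 45101 probe sets, 64 controls and those at or below the median level were left out, leaving 22518. Log2(signal + 16) was fitted with limma 3.58.1 in R 4.3.3 (1 term for group, eBayes with trend, two-sided, Benjamini-Hochberg, threshold 0.05). The added 16 understates fold changes of dim probe sets, and the number of arrays limits precision. Only the brightest probe set stands for a gene in lists. The procedure was run on simulated data with planted changes and noise drawn independently for each probe set and array. Array differences shared by many genes, as seen here, were not simulated. Alternatives were quantile normalization, median centring, a floor of 1, 64 added, other filters on level, no trend, array weights, averaging the probe sets of each gene and fits without single arrays or pairs of arrays.

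Members, gene lists and alternatives were chosen with earlier results of these data known. Named were all members, Tyrobp, list genes past the threshold, the 2 of smallest p in each list and the 6 genes nearest the members' profile; other genes were chosen with their values known. Some genes stand in 2 lists (Th, Calb2). Promoter sequences are from RefSeq, GRCm38.p6; no window was listed for Adora2a, Penk and Ppp1r1b.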

Additional observations from a re-analysis of the deposited data

How the results depend on the processing

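Quantile normalization, a floor of 1, 64 added, no filter on level, only the brighter probe sets (upper 25% by level) and eBayes without trend left the sign of each tested member probe set, and its side of the threshold, as they were, although 3 of the 13 fell below that level. Centring arrays on their medians moved the median of all genes by -0.40 on the log2 scale, and the striatal median lay -0.39 from it, as with the deposited scaling. Pde10a 1419389_at then changed by -0.12. Of the 8 genes, 7 kept a heterozygous range of at least 1 under quantile normalization and with 64 added, and 8 under the other scalings. The number of probe sets called over the whole array was 466, and was 126 with quantile normalization, 124 without a filter, 172 without trend, 4971 with array weights and 4592 without Ko1 and heterozygous 81, a fit added after seeing the data. Array weights gave 1 member call, with Drd2 at 0.14 and Pde10a 1432490_a_at at 0.066, and that added fit gave 3, with Drd2 at 0.28, Pde10a 1419389_at at -0.11 and Pde10a 1432490_a_at at 0.69.

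Leaving out 1 array at a time gave 0 to 5358 calls over the array and 0 to 2 among members (limma; the array-wide count was 0 without knockout 67, knockout 68, heterozygous 75 or heterozygous 81, with 3956, 3579, 2867 and 3239 probe sets at an unadjusted p under 0.05). The striatal median ran from -1.43 to 0.21, its knockout SD from 0.38 to 2.23 and its heterozygous SD from 0.19 to 1.37. Changes ran from -1.68 to 0.33 for Drd1 1456051_at, -0.42 to 0.47 for Drd2, -1.75 to 0.31 for Tac1, -1.40 to 0.40 for Ppp1r1b and -0.81 to 0.58 for Rgs9. For Pde10a they ran from -1.45 to 0.10 (1439618_at), -0.38 to 1.08 (1458499_at), -0.58 to 0.85 (1419389_at) and -0.90 to 0.61 (1432490_a_at). The signs of Penk, Pdyn, Drd1 1455629_at and Pde10a 1419390_at did not turn when 1 array was left out.

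With Ko1 as the only knockout array the median was 1.27, and changes were 1.00 for Pdyn, 1.37 for Tac1, 1.25 for Rgs9, 0.32 for Drd2, 1.22 for Penk, 1.29 for Pde10a 1439618_at, 1.58 for Ppp1r1b and 1.66 and 1.91 for Drd1. The cause of these differences between fits was not tested. No paired analysis was possible because the labels give the groups no shared replicate numbers. No detection calls were given, so a signal near 0 cannot be called absent.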
